A study of Mus musculus with 12 samples.

Results

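Glycolysis splits glucose into pyruvate in the cytosol, and the 10 genes described here are Slc2a1, which codes for the glucose transporter GLUT1, and 9 enzyme genes of the pathway, namely Hk2, Aldoa, Tpi1, Gapdh, Pgk1, Pgam1, Eno1, Pkm and Ldha. They were taken by symbol from a written list, and each matched 1 entry of the deposited table by its RefSeq identifier. They are 10 of 19708 entries, and all 10 passed the filter on low levels that left 12704 entries for testing. Transcript 3′ ends were sequenced in 12 libraries of C57BL/6 mouse cells, 1 library for each genotype, cell type and time. The 4 conditions were Mettl3-KO ESCs, WT ESCs, Mettl3-KO EBs and WT EBs, each sampled 0, 4 and 8 h after actinomycin, a drug that stops transcription. Mettl3 codes for the enzyme that places m6A, a methyl mark, on adenosines of mRNA. ESCs are pluripotent embryonic stem cells, held here without serum in N2B27 medium with LIF and the inhibitors CHIR99021 and PD0325901. EBs are embryoid bodies, in which ESCs differentiate as floating clumps, and were grown in DMEM with serum. The growth protocol gives 8 to 21 days of EB culture and does not say which day each library stands for. How the knockout was made, how many lines were used and whether the 3 times of a condition share a culture are not stated. With 1 library per genotype, cell type and time, p-values measure only the scatter of these libraries around a line over hours in each condition.

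Glucose enters through GLUT1 and is trapped as glucose 6-phosphate by hexokinase, of which Hk2 makes an inducible form. Aldolase A (Aldoa) splits fructose 1,6-bisphosphate, and triose phosphate isomerase (Tpi1) interconverts the products. Gapdh, Pgk1, Pgam1, Eno1 and Pkm then act in that order, Pgk1 and Pkm in the steps that form ATP. Ldha turns pyruvate into lactate and regenerates the NAD that Gapdh uses. Pluripotent cells are known for high glycolytic flux, and the transcription factors HIF1 and MYC are known to act on many of these genes.

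In ESCs, Pgk1, Aldoa, Ldha and Eno1 were lower in Mettl3-KO cells, at 36.8% to 41.3% of the WT level of the same time for Pgk1 and 55.0% to 70.0% for Eno1. Slc2a1 and Hk2 stood apart from the other 8 genes by their course after actinomycin: in Mettl3-KO ESCs they stood at 91.6% and 103% of their 0 h level after 8 h, against 27.7% and 34.0% in WT ESCs. The medians over all tested entries were 93.3% and 76.4%. For neither gene did the difference in change per hour between the genotypes pass the test in ESCs. In EBs none of the 10 genes passed the test of level between the genotypes as deposited. For the change per hour Slc2a1 alone passed it in EBs, as deposited but not with equal column totals. The libraries are of bulk RNA, in which fewer cells of a kind and less RNA per cell cannot be told apart.

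Column totals of the deposited level ranged from 10449707 to 11086748 in Mettl3-KO ESCs, from 10057266 to 11085581 in WT ESCs, from 6249922 to 7076737 in Mettl3-KO EBs and from 3673848 to 8311484 in WT EBs, the lowest being the WT EB library of 8 h. The low values lie on a step particular to each library, and 50 steps were read as 1 read, which gives 208874 to 666805 read equivalents per library. The 95% intervals below are counting intervals on these read equivalents and cover counting error only. Mettl3 itself stood at 98.1, 65.4 and 41.8 in Mettl3-KO ESCs at 0, 4 and 8 h, against 251, 64.8 and 113 in WT ESCs. In EBs it stood at 16.8, 40.7 and 83.9 in Mettl3-KO cells, against 175, 86.0 and 77.4 in WT cells. At 0 h it was lower in the libraries labelled Mettl3-KO in both cell types, but from 4 h on it was not lower in every pair, on 1.6 to 11.9 read equivalents. Which exons the knockout lacks is not recorded in the labels, and a 3′ end outside them would check nothing. The summed level of 8 ESC identity genes, all detected, was 40814 to 44469.6 in Mettl3-KO ESCs against 76703 to 83854 in WT ESCs, and 26505 to 31254 in Mettl3-KO EBs against 9607 to 34613 in WT EBs. The 8 genes of visceral and parietal endoderm summed to 311 to 411 in Mettl3-KO EBs and to 9211 to 12289.6 in WT EBs, against 491 to 677 in Mettl3-KO ESCs and 398 to 590.0 in WT ESCs, so the Mettl3-KO EBs did not show these markers above their ESCs. The 8 fibroblast and feeder genes summed to 1799 to 2290.2 in Mettl3-KO ESCs against 2406 to 4291 in WT ESCs, and to 1921 to 2312 in Mettl3-KO EBs against 4229 to 4635.5 in WT EBs. Blood, heart and neural lists each summed to at most 1082 in any library, and the embryonic globins Hba-x and Hbb-bh1 were listed at 0 in Mettl3-KO ESCs.

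Promoters are shown because several genes of the group were lower together in Mettl3-KO ESCs. ACGTG is the core of one form of the hypoxia response element, and it was searched on both strands (as ACGTG or CACGT) from 250 bases before to 50 after each start site in the RefSeq promoter table on GRCm38.p6. In CACGTG, known as an E-box form, the letters ACGTG and CACGT overlap. All 10 genes had an entry, 16 start sites in all, and 9 of the 16 promoters held the letters, which is 56.2%, against 19.6% of all 32851 promoters and 24.9% of the 12833 promoters of tested genes. Among the 9, 2 windows of Aldoa overlap and hold the same match. By gene, 8 of the 10 had the letters at 1 start site or more, and Eno1 and Tpi1 did not. This compares with 29.1% of tested genes and 21.8% of all genes in the promoter table. CACGTG itself was in 1 of the 16, that of Ldha, which is 6.25%, against 7.15% of all promoters. The 250 bases before the start site follow for the transporter, for hexokinase 2, for the gene that differed most between genotypes and for the 1 gene with CACGTG, with the searched letters in capitals. They lie at chr4:119108495-119108744 (plus strand) for Slc2a1, chr6:82774455-82774704 (minus strand) for Hk2, chrX:106186850-106187099 (plus strand) for Pgk1 and chr7:46845554-46845803 (plus strand) for Ldha.
Slc2a1: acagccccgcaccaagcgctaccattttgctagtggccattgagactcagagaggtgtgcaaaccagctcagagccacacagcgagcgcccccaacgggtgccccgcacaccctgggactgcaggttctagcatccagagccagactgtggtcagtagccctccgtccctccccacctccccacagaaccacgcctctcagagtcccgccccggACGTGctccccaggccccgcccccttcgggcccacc
Hk2: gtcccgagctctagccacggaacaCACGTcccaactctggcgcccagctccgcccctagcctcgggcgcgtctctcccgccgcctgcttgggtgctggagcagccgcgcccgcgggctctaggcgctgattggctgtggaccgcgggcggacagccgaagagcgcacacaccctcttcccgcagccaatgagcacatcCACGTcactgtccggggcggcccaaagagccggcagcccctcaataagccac
Pgk1: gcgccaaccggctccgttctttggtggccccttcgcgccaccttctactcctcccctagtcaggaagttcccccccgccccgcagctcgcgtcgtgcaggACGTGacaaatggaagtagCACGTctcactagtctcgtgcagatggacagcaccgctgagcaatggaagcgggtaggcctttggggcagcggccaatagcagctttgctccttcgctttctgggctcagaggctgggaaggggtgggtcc
Ldha: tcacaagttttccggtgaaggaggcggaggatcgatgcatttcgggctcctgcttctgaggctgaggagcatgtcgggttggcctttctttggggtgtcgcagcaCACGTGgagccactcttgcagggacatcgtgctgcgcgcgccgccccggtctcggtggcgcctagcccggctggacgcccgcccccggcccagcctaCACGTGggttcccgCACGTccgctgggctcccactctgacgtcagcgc
Slc2a1 holds the letters in 1 place, Hk2 and Pgk1 in 2 each and Ldha in 3. A match of letters is a description of the sequence and not a measured binding site.

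Glucose uptake and the first step are described first, and levels are in the units of the deposited table, compared within a gene only. On GRCm38.p6 Slc2a1 lies at chr4:119108745-119137330 and Hk2 at chr6:82725025-82774454. Slc2a1 (NM_011400) had levels of 2484, 2264 and 2277 in Mettl3-KO ESCs at 0, 4 and 8 h, against 4896, 2940.4 and 1356 in WT ESCs. In EBs it had 3638, 2658 and 2042 in Mettl3-KO cells, against 5348, 1759.6 and 651 in WT cells. Before actinomycin the knockout level was lower in both cell types, at 50.7% of WT in ESCs and 68.0% in EBs, and by 8 h it was higher, at 168% of WT in ESCs and 313% in EBs. Hk2 (NM_013820) had levels of 1463, 1150.4 and 1502 in Mettl3-KO ESCs, against 2723, 1661 and 926 in WT ESCs. In EBs the Hk2 level was 585, 502 and 329 in Mettl3-KO cells, against 879, 383 and 143 in WT cells, the last on 8.1 read equivalents. Its order at each end was that of Slc2a1: at 0 h the knockout stood at 53.7% of WT in ESCs and at 66.5% in EBs, and at 8 h at 162% and 229.7%. At equal column totals the knockout level in EBs at 8 h was 184% of WT for Slc2a1 and 135% for Hk2. At 0 h the counting intervals of the genotypes in ESCs did not overlap for either gene, with Slc2a1 at 2019 to 3025 in Mettl3-KO cells and 4261 to 5599 in WT cells. For Hk2 in EBs at 0 h they overlapped, at 441 to 761 in Mettl3-KO cells and 670.4 to 1132 in WT cells.

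**Figure D1:**
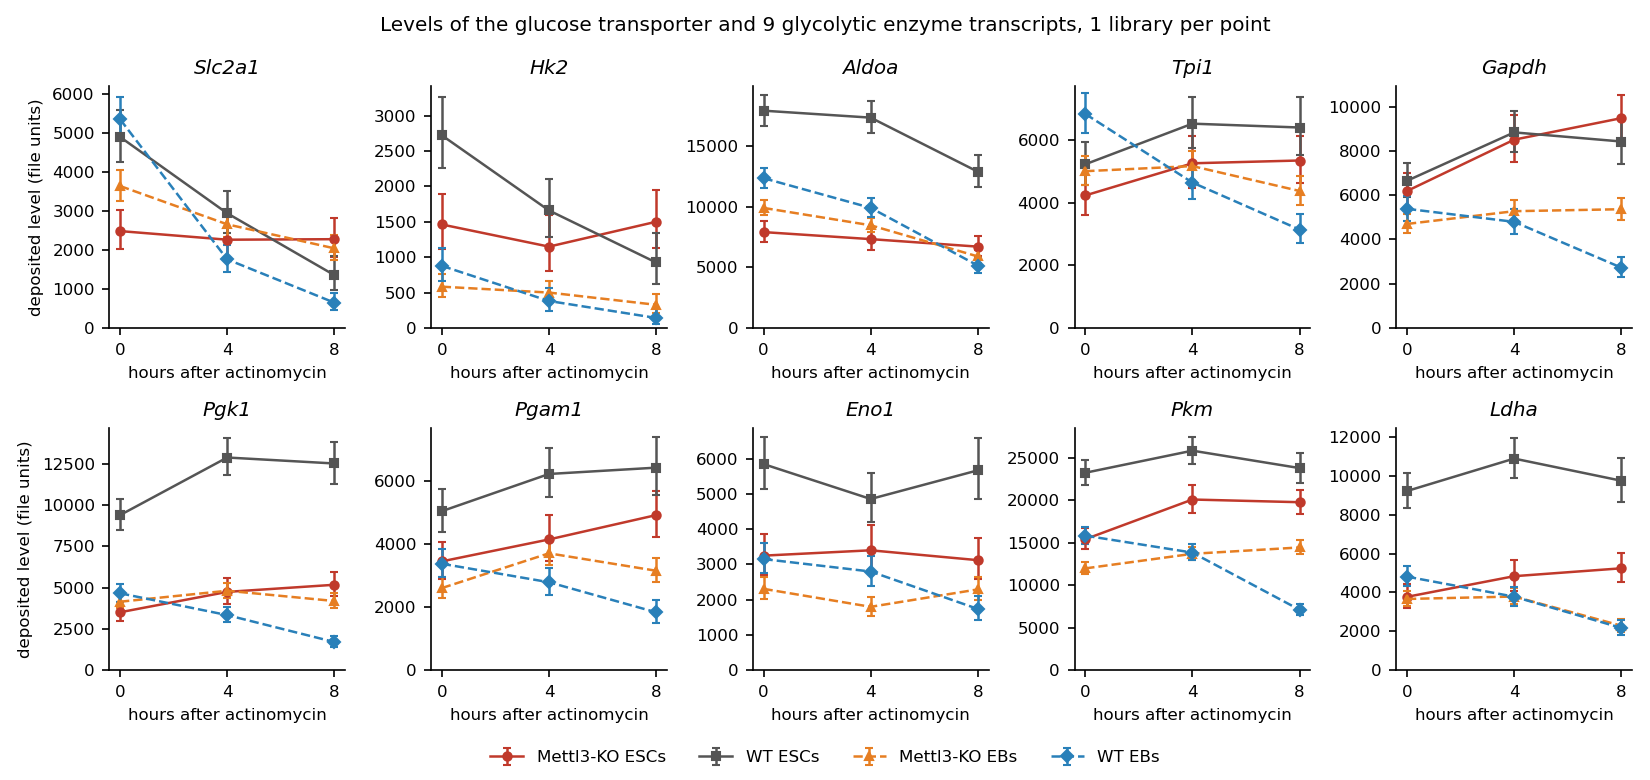
Deposited level (vertical axes, file units, each from 0) of the 10 genes against hours after actinomycin, with 1 library per point and bars for the 95% counting interval; colours and markers give the 4 conditions. For Pgk1, Aldoa and Ldha all WT ESC points lie above all others, while for Slc2a1 and Hk2 the WT lines cross the flatter knockout lines.

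Differences of level were fitted with limma on log2(level + 8.58), as means over the 3 times, and a gene was called where the Benjamini-Hochberg adjusted p over the 12704 entries was under 0.05. Over these means Slc2a1 (-0.20 ± 0.18 SE, adjusted p = 0.517) and Hk2 (-0.24 ± 0.24 SE, adjusted p = 0.567) were not called for Mettl3-KO minus WT in ESCs. At 0 h alone, where there is no test, the difference in ESCs was -0.98 for Slc2a1 and -0.89 for Hk2 on the log2 scale.

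Among the enzymes that split fructose bisphosphate and interconvert its products, Aldoa (NM_001177307) had levels of 7916, 7337 and 6718 in Mettl3-KO ESCs at 0, 4 and 8 h, against 17929.5, 17356 and 12897 in WT ESCs. The knockout was below WT in all libraries, at 42.3% to 52.1% of the WT level of the same time, and the difference was called in limma's test (-1.12 ± 0.15 SE, adjusted p = 0.000251). Tpi1 (NM_009415) had 4227, 5252 and 5341 in Mettl3-KO ESCs, against 5221, 6515 and 6393 in WT ESCs. Its knockout libraries stood at 80.6% to 83.6% of WT at the same time, the groups overlapped, and the difference was not called (-0.29 ± 0.16 SE, adjusted p = 0.257).

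Gapdh (NM_008084), which oxidises glyceraldehyde 3-phosphate, had 6188, 8506 and 9477 in Mettl3-KO ESCs, against 6651, 8835 and 8424 in WT ESCs. These groups overlapped throughout, and the difference was 0.00 ± 0.17 SE (adjusted p = 0.992), with a 95% interval from -0.35 to 0.36. Pgk1 (NM_008828), on the X chromosome and the enzyme of the next step, had 3507, 4742 and 5174 in Mettl3-KO ESCs, against 9401, 12894 and 12531 in WT ESCs. It stood at 36.8% to 41.3% of WT, the lowest share among the 10 genes at each time, and was called (-1.38 ± 0.17 SE, adjusted p = 0.000121). Many processed copies of Gapdh are known in the mouse genome, and the sources used here do not give how reads with several matches were treated, so its level is uncertain.

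Pgam1 (NM_023418), a phosphoglycerate mutase, had 3451, 4147 and 4919 in Mettl3-KO ESCs, against 5044, 6225 and 6426 in WT ESCs. Every knockout library was below every WT library, but the difference was not called (-0.51 ± 0.18 SE, adjusted p = 0.0732). Eno1 (NM_023119), an enolase, had 3247, 3398 and 3119 in Mettl3-KO ESCs, against 5844, 4854 and 5667 in WT ESCs. That difference was called (-0.74 ± 0.19 SE, adjusted p = 0.0175) but not without any 1 of the Mettl3-KO or WT ESC libraries of 0 h or 8 h (-0.82 to -0.58 over all libraries left out in turn), and the near-identical copy Eno1b could share its reads.

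Pkm (NM_011099), pyruvate kinase, had 15405, 20077 and 19761 in Mettl3-KO ESCs, against 23227, 25829.6 and 23778 in WT ESCs. Its groups did not overlap, and the difference was not called (-0.41 ± 0.15 SE, adjusted p = 0.0765); its splice forms share a 3′ end and cannot be told apart here. Ldha (NM_001136069) had 3772, 4835 and 5241 in Mettl3-KO ESCs, against 9220.5, 10891.5 and 9751 in WT ESCs. It stood at 40.9% to 53.7% of WT and was called (-1.12 ± 0.18 SE, adjusted p = 0.000821).

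The 4 called genes lie at chrX:106187100-106203699 (Pgk1), chr7:126795234-126800994 (Aldoa), chr7:46842274-46855627 (Ldha) and chr4:150236708-150248879 (Eno1) on GRCm38.p6. In ESCs 4 of the 10 genes were lower in Mettl3-KO cells and none was higher, where 3.27% of all tested entries were called lower and 10.9% higher. At an unadjusted p under 0.05 Pkm and Pgam1 add to the 4, where 27.8% of all tested entries were under it in either direction. The median difference over the 10 genes was -0.46, against 0.18 over all tested entries, and at 0 h alone it was -0.87 against 0.03. In 6 genes all 3 knockout libraries lay below all 3 WT libraries, as did 8.12% of tested entries. Together the 10 genes made up 0.494% to 0.573% of the column total in Mettl3-KO ESCs and 0.818% to 0.884% in WT ESCs. Relative to equal column totals or to a median-ratio scaling of the libraries, Pkm and Pgam1 were called as well, which makes 6 lower. Over all tested entries 504 and 668 were called lower under these scalings. The summed level of the 8 ESC identity genes was lower in the same knockout libraries, and its part in these differences was not tested.

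**Figure D2:**
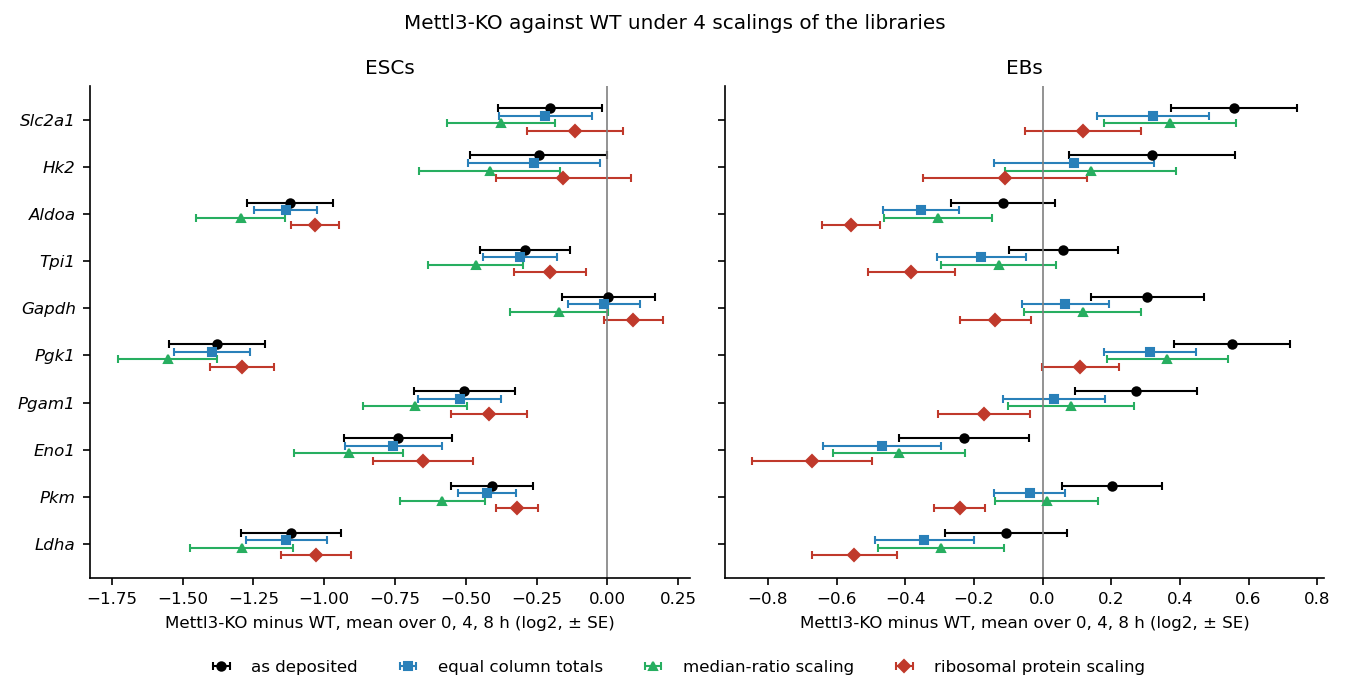
Mettl3-KO minus WT level (log2, mean over 0, 4 and 8 h, horizontal axes; bars are limma's SE) of each gene in ESCs on the left and EBs on the right, under the deposited scaling and 3 others named in the legend. In ESCs Pgk1, Aldoa and Ldha lie below -1 in all 4; in EBs the position against 0 shifts with the scaling, and Pkm, Tpi1, Gapdh, Pgam1 and Hk2 change sides.

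After actinomycin, Slc2a1 and Hk2 had the lowest shares left at 8 h among the 10 genes in WT ESCs, Mettl3-KO EBs and WT EBs, while in Mettl3-KO ESCs Aldoa had the lowest, 84.9%. In WT EBs 12.2% of the Slc2a1 level (95% interval 8.4% to 17.1%) and 16.3% of the Hk2 level (6.8% to 34.0%) was left at 8 h. In WT ESCs 27.7% of Slc2a1 (19.4% to 38.8%) and 34.0% of Hk2 (21.7% to 51.6%) was left. In Mettl3-KO EBs the shares were 56.1% for Slc2a1 (46.5% to 67.6%) and 56.2% for Hk2 (34.3% to 90.4%), and in Mettl3-KO ESCs 91.6% (67.8% to 124%) and 103% (69.8% to 151%). In both cell types the WT interval of Slc2a1 lay wholly below the knockout interval, while for Hk2 in EBs the knockout interval began at 34.3% and the WT interval ended at 34.0%.

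The median share left at 8 h over all tested entries was 93.3% in Mettl3-KO ESCs, 76.4% in WT ESCs, 83.0% in Mettl3-KO EBs and 49.0% in WT EBs. With the columns set to equal totals the share of Slc2a1 at 8 h was 86.4% in Mettl3-KO ESCs, 30.4% in WT ESCs, 63.6% in Mettl3-KO EBs and 27.6% in WT EBs. On that scale WT ESCs and WT EBs thus stood close together, while the medians of all tested entries were 88.0%, 83.7%, 94.0% and 111% in the same order of conditions. For the other 8 genes the shares at 8 h as deposited ran from 84.9% to 153% in Mettl3-KO ESCs, from 71.9% to 133% in WT ESCs, from 59.6% to 121% in Mettl3-KO EBs and from 36.5% to 55.1% in WT EBs. Column totals of the deposited levels differ between libraries, and the scaling behind these levels is unknown. A share above 100% therefore does not show a gain of molecules.

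Over the 4 conditions the mean slope was -0.18 ± 0.02 per hour for Slc2a1 (log2, SE, limma adjusted p = 4e-05), -0.15 ± 0.03 for Hk2 (adjusted p = 0.000948) and -0.08 ± 0.02 for Aldoa (adjusted p = 0.00206). As deposited, these 3 of 10 genes were called lower and none higher, where 21.4% of tested entries were called lower and 0.236% higher. Aldoa was not called under median-ratio scaling, without the variance trend or without the Mettl3-KO EB library of 8 h. Without both EB libraries of 8 h neither Aldoa nor Hk2 was called. The slope of Slc2a1 was -0.02 ± 0.04 per hour in Mettl3-KO ESCs and -0.23 ± 0.04 in WT ESCs, and -0.10 ± 0.04 in Mettl3-KO EBs and -0.38 ± 0.04 in WT EBs. The difference between genotypes was called in EBs (0.27 ± 0.06 SE, adjusted p = 0.0366), as for 1.19% of tested entries, and not in ESCs (0.21 ± 0.06 SE, adjusted p = 0.172), where 0.0394% of entries were called. The EB difference was 0.15 ± 0.05 with equal column totals (adjusted p = 0.551), and it was called with only 1 of the 12 libraries left out, the WT EB library of 4 h. For Hk2 the difference of slopes was 0.20 ± 0.07 in ESCs (adjusted p = 0.364) and 0.22 ± 0.07 in EBs (adjusted p = 0.140), neither called. Besides Slc2a1 and Hk2, 0 of the other 8 genes had a slope difference called by limma in either cell type, with values from -0.002 to 0.05 in ESCs and from 0.06 to 0.18 in EBs. At an unadjusted p under 0.05 these were 0 of the 8 in ESCs and 5 of the 8 in EBs, where 9.98% and 16.9% of tested entries were under it. In EBs the median slope difference over all tested entries was 0.08 as deposited and -0.03 with equal column totals.

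**Figure D3:**
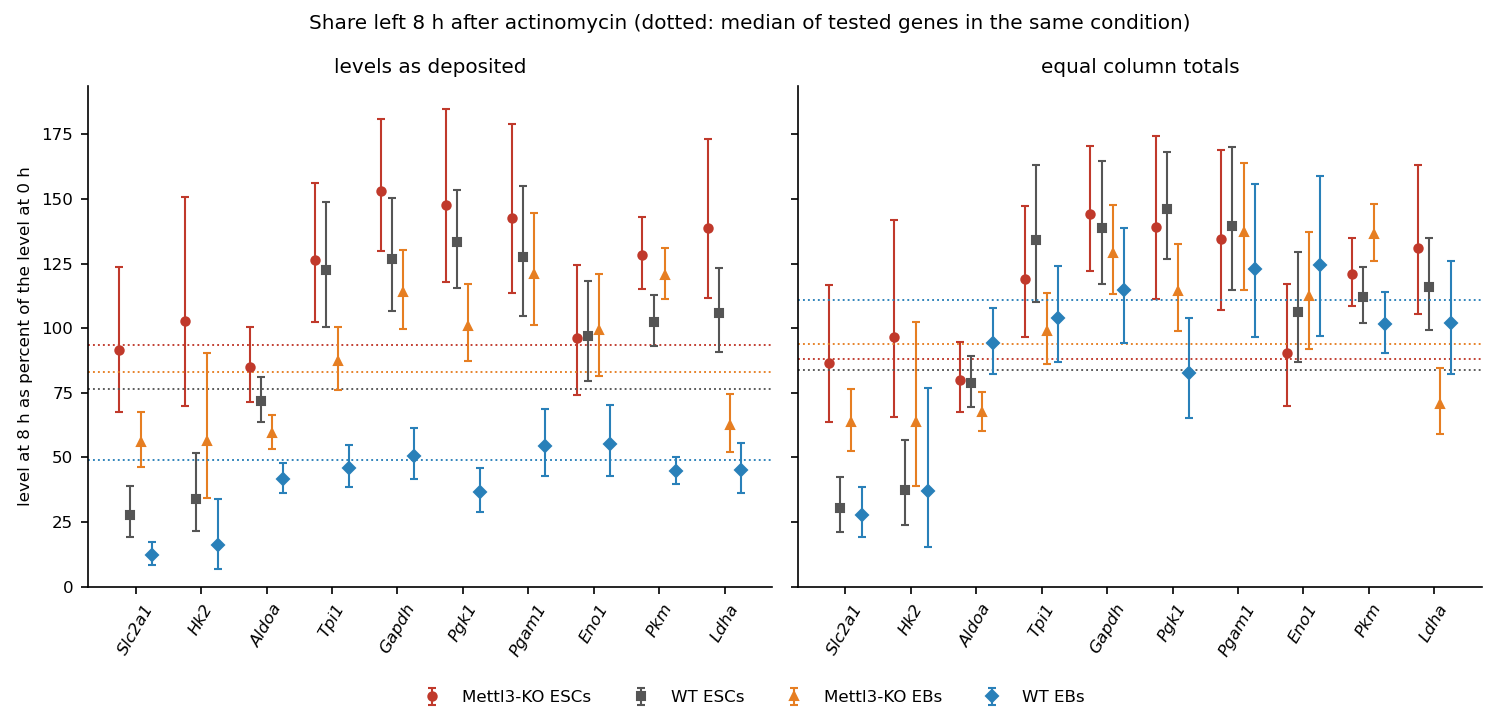
Level at 8 h as percent of the level at 0 h (vertical axis) for each gene in the 4 conditions, as deposited on the left and with equal column totals on the right; bars are 95% counting intervals and dotted lines the median of tested genes in the same condition. Slc2a1 and Hk2 lie lowest in both WT conditions in both panels, and the WT EB points of all 10 genes are higher with equal totals.

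The 3′ UTRs of these transcripts are shown because Mettl3 acts on mRNA and the courses of Slc2a1 and Hk2 differed most between genotypes. GGACT, one form of the m6A consensus, was searched in 1 GENCODE M21 transcript per gene on GRCm38, after the levels had been seen. In the 3′ UTR it occurred 4 times in Hk2, 2 times in Slc2a1, once each in Pkm and Tpi1 and not in the other 6 genes. Over 12421 tested entries with a matched coding transcript, 59.4% held it in the 3′ UTR. Counted over the whole transcript, it occurred 2.88 times per kb in Pkm, 2.19 in Pgk1, 1.87 in Tpi1, 1.81 in Hk2 and 1.41 in Gapdh. Slc2a1 had 0.92 per kb, below the median of 1.06 over those entries, and Pgam1, Ldha, Eno1 and Aldoa had less. The 3′ UTRs of Hk2 and Slc2a1 are also the longest of the group, 2285 and 1537 bases, against 178 to 885 for the other 8 and a median of 978 over those entries. The sites follow, 5′ to 3′ on the transcript with GGACT in capitals; Slc2a1 is on the plus strand and Hk2 on the minus strand.
Slc2a1, 156 bases after the coding end, chr4:119136594-119136614: gatattcaGGACTttgatggc
Slc2a1, 502 bases after the coding end, chr4:119136940-119136960: aggggtccGGACTccatttta
Hk2, 17 bases after the coding end, chr6:82727281-82727301: agcagacgGGACTtccctgct
Hk2, 107 bases after the coding end, chr6:82727191-82727211: agagactgGGACTtttgtccc
Hk2, 1348 bases after the coding end, chr6:82725950-82725970: gcttccttGGACTgagctgca
Hk2, 1966 bases after the coding end, chr6:82725332-82725352: ctaggaaaGGACTttttttta
No m6A was measured in these libraries, and the letters do not show that a site is modified.

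In EBs the levels of the enzymes overlapped between the genotypes for every gene. Pgk1 had 4146, 4812 and 4189 in Mettl3-KO EBs at 0, 4 and 8 h, against 4659, 3335 and 1702 in WT EBs. Its knockout level moved little with time, while the WT level was lowest at 8 h. Aldoa had 9911, 8479 and 5908 in Mettl3-KO EBs, against 12363, 9916 and 5156 in WT EBs. Ldha had 3663, 3787 and 2285 in Mettl3-KO EBs, against 4812, 3779.7 and 2172 in WT EBs. For Ldha the counting intervals of the genotypes overlapped at 4 and 8 h. Pkm had 11969, 13686 and 14435 in Mettl3-KO EBs, against 15826, 13829.5 and 7102 in WT EBs. As deposited, the remaining 4 enzymes, Tpi1, Gapdh, Pgam1 and Eno1, stood at 73.2% to 87.3% of WT at 0 h and at 132% to 197% at 8 h.

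At 0 h all 10 genes were lower in Mettl3-KO EBs than in WT EBs as deposited, at 66.5% (Hk2) to 89.0% (Pgk1) of the WT level. The median log2 difference was -0.40 against -0.18 over all tested entries, of which 40.0% were higher in the knockout. At equal column totals 8 of the 10 were below WT at 0 h, and Pgk1 (104.5%) and Gapdh (102.6%) were above it. The median over all tested entries was then 0.03. At 8 h all 10 were above the WT level as deposited, at 105% (Ldha) to 313% (Slc2a1), where the median log2 difference over all tested entries was 0.38. At equal column totals 6 of the 10 were above WT at 8 h and 4 were below it, namely Aldoa, Ldha, Eno1 and Tpi1, and the median over all tested entries was -0.34. The fitted differences over the 3 times ranged from -0.23 ± 0.19 SE (Eno1) to 0.56 ± 0.18 (Slc2a1, limma adjusted p = 0.0744), with Pgk1 at 0.55 ± 0.17 (adjusted p = 0.0557). Pkm (0.20 ± 0.15), Gapdh (0.31 ± 0.17), Pgam1 (0.27 ± 0.18), Hk2 (0.32 ± 0.24), Tpi1 (0.06 ± 0.16), Aldoa (-0.12 ± 0.15) and Ldha (-0.11 ± 0.18) lay between. None of the 10 was called, where 9.22% of tested entries were (7.66% higher and 1.56% lower). At an unadjusted p under 0.05 there were 2 of the 10, beside 20.8% of tested entries. The genotypes' libraries overlapped for all 10 genes, where all knockout libraries were below WT for 7.4% of tested entries and above for 9.58%. With the libraries scaled to equal summed levels of ribosomal protein genes, Aldoa, Ldha and Eno1 were called lower, where 607 of all tested entries were. The WT EB library of 8 h has the lowest column total, and without any single library the number of calls was 0 or 1. The endoderm genes were higher in the same WT EB libraries, and their part was not tested.

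The knockout difference itself differed between EBs and ESCs. As means over the 3 times, the difference in EBs minus that in ESCs was above 0 for all 10 genes. It was called for Pgk1 (1.93 ± 0.24 SE, limma adjusted p = 0.000304), Aldoa (1.00 ± 0.21, adjusted p = 0.0182) and Ldha (1.01 ± 0.25, adjusted p = 0.0421). For the other 7 it ran from 0.30 to 0.78. Under ribosomal protein scaling it was below 0 for 3 of the 10, Gapdh (-0.23), Tpi1 (-0.18) and Eno1 (-0.02), and the median over the 10 was 0.16. The call was made for 1.5% of tested entries in this direction, and the median was 0.68 over the 10 genes and -0.05 over all tested entries. Pgk1 kept its call under all 3 other scalings (1.40 to 1.92) and without any single library. All 3 calls were lost without the variance trend and with additive time terms. Aldoa and Ldha lost theirs without 9 and 11 of the 12 libraries taken in turn, and Ldha also under ribosomal protein scaling. At 0 h alone, where there is no test, Mettl3-KO minus WT of Pgk1 was -0.17 in EBs and -1.42 in ESCs. For Gapdh (-0.20 in EBs, -0.10 in ESCs) and Tpi1 (-0.45 in EBs, -0.30 in ESCs) it was lower in EBs, and for all other genes of the group higher.

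In WT EBs 9 of the 10 genes were called lower than in WT ESCs as deposited, as means over the 3 times. Of tested entries 29.1% were called lower and 3.49% higher. For 8 of the 10, Slc2a1 and Tpi1 excepted, all EB libraries lay below all ESC libraries, as for 23.6% of tested entries. Hk2 (-2.11 ± 0.24 SE, limma adjusted p = 1.82e-05), Pgk1 (-1.94 ± 0.17, adjusted p = 1.84e-06) and Ldha (-1.54 ± 0.18, adjusted p = 1.87e-05) had the largest differences. With equal column totals, median-ratio or ribosomal protein scaling these 3 were still called lower, at -1.44 to -1.22 for Hk2, -1.25 to -1.03 for Pgk1 and -0.85 to -0.63 for Ldha. Over all tested entries 607, 976 and 592 were called lower under those scalings. Aldoa (-0.89 ± 0.15), Gapdh (-0.94 ± 0.17), Eno1 (-1.13 ± 0.19), Pkm (-1.07 ± 0.15), Pgam1 (-1.18 ± 0.18) and Slc2a1 (-0.55 ± 0.18) were called as deposited but under none of those 3 scalings, and Slc2a1 was also not called without any 1 of the 6 EB or the 3 WT ESC libraries. Tpi1 (-0.38 ± 0.16) was not called as deposited and was called higher with equal column totals and ribosomal protein scaling. At 0 h alone, where there is no test, the difference was -1.62 for Hk2, -1.01 for Pgk1, -0.94 for Ldha, -0.30 for Gapdh and 0.39 for Tpi1. The median at 0 h was -0.57 over the 10 genes and -0.29 over all tested entries. At that time the Slc2a1 level was 5348 in WT EBs, against 4896 in WT ESCs.

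In Mettl3-KO cells 5 of the 10 genes, Ldha, Gapdh, Eno1, Pkm and Hk2, were lower in EBs than in ESCs as deposited, where 23.2% of tested entries were called lower and 0.929% higher. For 4 of these, Ldha excepted, all EB libraries lay below all ESC libraries, as for 36.8% of tested entries. With equal column totals 0 were lower and 4 were higher, namely Pgk1, Aldoa, Tpi1 and Slc2a1, and the difference was above 0 in 9 of the 10. Over all tested entries 144 were called higher and 93 lower with that scaling. The deposited calls of Ldha, Gapdh, Eno1 and Pkm were also lost without any 1 of the Mettl3-KO ESC libraries or of the Mettl3-KO EB libraries of 0 and 8 h, and that of Hk2 without either of those EB libraries. Hk2 alone was below 0 under all 4 scalings, from -1.55 ± 0.24 as deposited to -0.87 ± 0.23 with equal column totals, where it was not called (adjusted p = 0.0762). Its level at 0 h was 585 in Mettl3-KO EBs, against 1463 in Mettl3-KO ESCs. At 0 h alone the median difference over the 10 genes was -0.20, against -0.53 over all tested entries. Scaling moved the median of all tested entries from -0.61 as deposited to 0.05 with equal column totals, and these comparisons share the WT or knockout libraries of the ones above. At 0 h the Pgk1 level was 9401 in WT ESCs, 4659 in WT EBs, 4146 in Mettl3-KO EBs and 3507 in Mettl3-KO ESCs. The interval of the first (8512 to 10357) lay above the other 3, of which neighbours in that order overlapped.

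**Figure D4:**
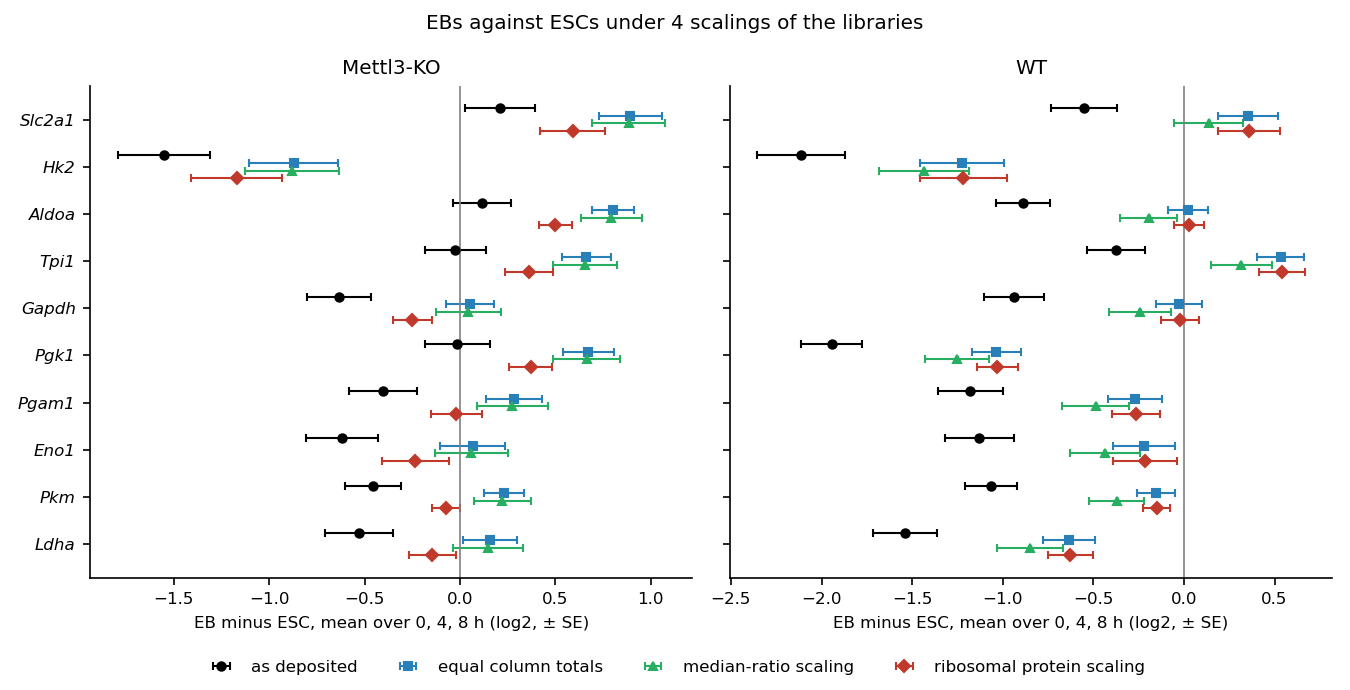
EB minus ESC level (log2, mean over 0, 4 and 8 h, horizontal axes; bars are limma's SE) of each gene in Mettl3-KO cells on the left and WT cells on the right under 4 scalings. In Mettl3-KO cells 9 of the 10 genes lie above 0 with equal column totals, against 2 as deposited, while in WT cells Hk2, Pgk1 and Ldha were called lower under all 4 scalings.

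Of the other glycolytic enzymes and isoforms, 14 of 20 passed the filter, and in Mettl3-KO ESCs 3 were lower and 1 was higher than in WT ESCs. Over all tested entries 3.27% were called lower and 10.9% higher. Pfkp, a phosphofructokinase, had levels of 510.5, 573 and 416 in Mettl3-KO ESCs, against 1718, 1434 and 1587 in WT ESCs (-1.65 ± 0.26 SE, limma adjusted p = 0.000745). Pfkl (-1.08 ± 0.28), of the same enzyme family, and Gpi1 (-0.66 ± 0.17), the isomerase between hexokinase and phosphofructokinase, were also lower. With these, genes of 6 steps from the isomerase to lactate were lower in Mettl3-KO ESCs. Adpgk, an ADP-dependent glucokinase, was higher (1.10 ± 0.34, adjusted p = 0.0405), though not under median-ratio scaling. In EBs Gpi1 (0.75 ± 0.17) and Adpgk (1.32 ± 0.34) were higher in Mettl3-KO cells, and Hkdc1, a hexokinase-domain gene (-2.74 ± 0.65), and Eno3, an enolase (-1.53 ± 0.42), were lower. In that comparison 7.66% of tested entries were called higher and 1.56% lower as deposited. With equal column totals the list had 1 higher and 2 lower, where 632 of all tested entries were higher and 359 lower. Under the other 2 scalings it had 0 higher and 2 lower. All tested entries then had 652 higher and 273 lower under median-ratio scaling, and 391 higher and 607 lower under ribosomal protein scaling. Hkdc1 had 22.9, 27.3 and 47.7 in Mettl3-KO EBs, against 396, 198 and 219.5 in WT EBs. The knockout difference in EBs exceeded that in ESCs for Gpi1 (1.41 ± 0.24, adjusted p = 0.00414) and Pfkp (1.55 ± 0.37, adjusted p = 0.0335).

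Between WT EBs and WT ESCs, Hkdc1 was higher (3.46 ± 0.65 SE, limma adjusted p = 0.00092), and Gpi1 (-1.30 ± 0.17), Gapdhs, known as the sperm isoform of Gapdh (-1.51 ± 0.24), and Pfkp (-1.09 ± 0.26) were lower as deposited. In Mettl3-KO cells Gapdhs was lower in EBs (-1.03 ± 0.24). With equal column totals this list had 3 higher and 0 lower in WT cells, where 1405 of all tested entries were called higher and 607 lower. In Mettl3-KO cells it had 2 higher and 0 lower, where 144 of all tested entries were called higher and 93 lower.

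Of 10 glucose and monocarboxylate transport genes, 8 were tested. Bsg, the partner protein of the lactate transporters, was lower in Mettl3-KO cells by limma's test, with a difference of -0.71 ± 0.14 SE in ESCs and -0.73 ± 0.14 SE in EBs (adjusted p = 0.00347 for each). Slc16a1, the lactate transporter MCT1, had 668, 801 and 546 in Mettl3-KO EBs, against 1513, 1176 and 1327 in WT EBs (-0.99 ± 0.23, adjusted p = 0.0126). Its knockout difference was lower in EBs than in ESCs (-1.62 ± 0.33, adjusted p = 0.0126). Slc2a3, the transporter GLUT3, was higher in Mettl3-KO EBs (0.49 ± 0.15, adjusted p = 0.0467) and lower in WT EBs than in WT ESCs (-0.93 ± 0.15), calls that no other scaling gave. In Mettl3-KO cells, EBs were higher than ESCs for Slc16a3, the transporter MCT4 (1.06 ± 0.26), and lower for Slc16a1 (-1.61 ± 0.23). Bsg was lower in EBs than in ESCs as deposited in Mettl3-KO cells (-0.54 ± 0.14) and in WT cells (-0.52 ± 0.14), and above 0 in both with equal column totals.

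Among 8 tested regulators of flux, Tigar, a fructose bisphosphatase that opposes phosphofructokinase, was higher in Mettl3-KO cells in both cell types. It had 739.8, 516 and 925 in Mettl3-KO ESCs, against 258, 226 and 62.8 in WT ESCs (2.12 ± 0.39 SE, limma adjusted p = 0.00251). In EBs it had 545, 411 and 445 in Mettl3-KO cells, against 186, 40.6 and 35.2 in WT cells (2.66 ± 0.39, adjusted p = 0.000476). Tigar (-1.14 ± 0.39) and Pdk3, a pyruvate dehydrogenase kinase (-1.63 ± 0.37), were lower in WT EBs than in WT ESCs, and Pdk3 was lower in Mettl3-KO EBs than in Mettl3-KO ESCs (-1.11 ± 0.37), none of them under another scaling.

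The 5 pyruvate dehydrogenase genes, whose complex turns pyruvate into acetyl-CoA in mitochondria, had 0 level calls between genotypes in either cell type by limma (1 of 5 in each at an unadjusted p under 0.05). Under that unadjusted threshold lay 27.8% of tested entries in ESCs and 20.8% in EBs. The slope of Pdha1, a subunit gene, differed between Mettl3-KO and WT EBs (0.28 ± 0.06 per hour, adjusted p = 0.0363), a call made for 1.19% of tested entries and given by no other scaling. As deposited 5 of 5 were lower in EBs than in ESCs in each genotype, where 23.2% of tested entries were called lower in Mettl3-KO cells and 29.1% in WT cells. Pdha1 was lower in EBs under all 4 scalings in Mettl3-KO cells (-1.61 ± 0.18 as deposited) and in WT cells (-2.22 ± 0.18). Pdhb (-0.90 ± 0.23), Dld (-1.02 ± 0.26) and Dlat (-1.96 ± 0.38) were lower in Mettl3-KO EBs, and Pdhb (-1.74 ± 0.23), Dld (-1.48 ± 0.26) and Dlat (-1.52 ± 0.38) in WT EBs. Equal column totals left 1 of the 5 lower in Mettl3-KO cells and 2 in WT cells, where 93 and 607 of all tested entries were called lower.

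All 8 pentose phosphate genes were tested. Pgd, 6-phosphogluconate dehydrogenase, had 5939, 6555 and 6542 in Mettl3-KO ESCs, against 3853, 3847 and 3776 in WT ESCs (0.73 ± 0.16 SE, limma adjusted p = 0.00853), and was higher in Mettl3-KO EBs as well (0.98 ± 0.16, adjusted p = 0.00131). H6pd, which acts in the endoplasmic reticulum, was higher in Mettl3-KO ESCs (1.92 ± 0.49, adjusted p = 0.0166). As deposited 6 of the 8 were lower in EBs than in ESCs in each genotype, beside the same 23.2% and 29.1% of tested entries, among them the transaldolase gene Taldo1 (-0.94 ± 0.17), the transketolase gene Tkt (-1.07 ± 0.21), H6pd (-2.19 ± 0.49) and Rpe (-1.25 ± 0.29) in Mettl3-KO cells and Taldo1 (-1.29 ± 0.17), Tkt (-1.22 ± 0.21), Pgd (-0.95 ± 0.16) and G6pdx (-1.98 ± 0.35) in WT cells. With equal column totals 0 were lower in Mettl3-KO cells and 1 in WT cells, where 93 and 607 of all tested entries were called lower. Of 5 tested genes of gluconeogenesis, Pcx, pyruvate carboxylase, was higher in Mettl3-KO EBs than in WT EBs (1.35 ± 0.35), and Pck2, the mitochondrial PEP carboxykinase (-1.26 ± 0.26), and Pcx (-1.42 ± 0.35) were lower in WT EBs than in WT ESCs, under no other scaling.

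Of 19 hypoxia response genes 16 were tested, and they gave no single direction between genotypes. In Mettl3-KO ESCs Arnt, the partner of HIF proteins (-1.11 ± 0.28 SE, limma adjusted p = 0.0149), Epas1, which codes for HIF2α (-1.21 ± 0.33), and P4ha1, a collagen prolyl hydroxylase (-0.97 ± 0.29), were lower, and Egln2, a HIF prolyl hydroxylase, was higher (1.38 ± 0.30, adjusted p = 0.00672). In Mettl3-KO EBs P4ha1 (-2.19 ± 0.29) and Epas1 (-2.38 ± 0.33) were lower, and Ddit4, an inhibitor of mTORC1, was higher (0.83 ± 0.25, adjusted p = 0.0472), the last under no other scaling. The knockout difference of Arnt was higher in EBs than in ESCs (1.59 ± 0.39, adjusted p = 0.0414), a call that equal column totals and ribosomal protein scaling did not give.

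Between EBs and ESCs the calls in this list turned with the scaling: in WT cells 9 of 16 were higher and 1 lower in EBs with equal column totals, and likewise under median-ratio and ribosomal protein scaling, against 1 higher and 4 lower as deposited. Over all tested entries in WT cells, 1405 were called higher and 607 lower with equal column totals. P4ha1 was higher in WT EBs under all 4 scalings, with 3192, 2796 and 2230.3 in WT EBs, against 662, 449 and 536 in WT ESCs (2.30 ± 0.29 as deposited). Arnt was lower under all 4 (-2.03 ± 0.28 as deposited), and Kdm3a (-1.28 ± 0.31) and Hif1a (-1.03 ± 0.29) only as deposited. In Mettl3-KO cells Bnip3 (1.58 ± 0.44), P4ha1 (1.09 ± 0.29) and Ddit4 (0.85 ± 0.25) were higher in EBs and Egln2 (-1.14 ± 0.30) was lower, the last under no other scaling. After actinomycin 7 of the 16 fell and none rose as deposited (mean slope, limma), next to 21.4% of tested entries called lower. With equal column totals, median-ratio and ribosomal protein scaling 4, 2 and 4 fell. Over all tested entries 1165, 812 and 1923 were called lower under those scalings.

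Across the 12 libraries the log2 levels of the 8 enzymes other than Hk2 followed each other, with Pearson's r of 0.416 (Gapdh and Aldoa) to 0.960 (Pgam1 and Pkm) and a median of 0.80 over 28 pairs. Against these 8, Hk2 had r of 0.63 (Tpi1) to 0.859 (Pkm) and Slc2a1 had 0.343 (Eno1) to 0.63 (Tpi1), over 16 pairs in all. The tested genes outside the group closest to its mean profile were Asns (r = 0.981), Rps15 (0.979), Rack1 (0.978), Anp32e (0.976) and Sarnp (0.975), each over 12 libraries. All these points share the libraries' depth and scaling, and the correlations are descriptions without a test.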

How the data were processed

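The data are 1 deposited table of signal values, which the authors call normalized levels, for RefSeq transcripts in 12 libraries of poly(A) RNA 3′ ends. CASAVA 1.8.2, Bowtie, Bowtie2 2.1.0 and mm10 are named in the submitters' processing notes. Counting and scaling are not given in the sources used here; column totals differ 3.02-fold. Of 19746 entries, 19535 were named from the RefSeq gene table and 98 from GENCODE, 113 stayed unmatched, and 38 identical duplicates were dropped.

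The test was limma's (limma 3.58.1, R 4.3.3), applied to log2(level + 8.58) (the pseudocount equals 1 ppm of an average column), for entries with a mean level of at least 42.9. The log2 scale understates differences of low genes. The fit gave each of the 4 conditions a mean and a line over hours, leaving 4 residual degrees of freedom, so the error is the scatter of the 3 times around those lines, with a trended prior. The step was tested on simulated data. The low values lie on each library's step, within 0.1 step for at least 99.8% of values under 100, and 50 steps were read as 1 read for exact Poisson intervals.

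The members and lists were chosen with earlier results of these data known. All 10 members are named, with up to 4 genes of each other list per comparison by adjusted p, and the 5 closest profiles. Alternatives were 3 scalings, pseudocounts of 0.2 and 5 ppm, no filter, no variance trend, additive time terms, 0 h alone and each library left out.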

Additional observations from a re-analysis of the deposited data

Results flagged for a closer look

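The knockout difference of 3 genes itself differed between EBs and ESCs in limma's test of that difference. It was 1.93 ± 0.24 SE higher in EBs for Pgk1 (log2, limma adjusted p = 0.000304), 1.00 ± 0.21 higher for Aldoa (adjusted p = 0.0182) and 1.01 ± 0.25 higher for Ldha (adjusted p = 0.0421). All 3 calls were lost without the variance trend and with additive time terms. Those of Aldoa and Ldha were also lost without most of the libraries taken in turn, while Pgk1 kept its call without any single library.

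For Slc2a1 the slope after actinomycin differed between Mettl3-KO and WT EBs by 0.27 ± 0.06 SE per hour (log2, limma adjusted p = 0.0366). At equal column totals it was 0.15 ± 0.05 (adjusted p = 0.551), and it was called under none of the 3 other scalings.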

How the results depend on the processing

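No paired analysis was possible because each group holds 1 library and the labels give no replicate numbers; fits with additive time terms take the hour as a common term. The cause of the shifts below was not tested. Pgk1 and Aldoa kept their lower level in Mettl3-KO ESCs under all 8 alternatives with all libraries and without each library, while without the variance trend Ldha was no longer called, nor was Eno1 without the trend, with additive time terms, and without either genotype's ESC library of 0 h or of 8 h.

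Among the signs that turned, those of Pgk1, Tpi1 and Pgam1 in EB minus ESC in Mettl3-KO cells belong to genes not called as deposited; they were 0.67, 0.66 and 0.28 under equal column totals and 0.66, 0.65 and 0.28 under median-ratio scaling, and Pgk1 (0.37) and Tpi1 (0.36) also turned under ribosomal protein scaling. Signs also turned under equal column totals for Mettl3-KO minus WT of Gapdh in ESCs (-0.013) and of Pkm (-0.037) and Tpi1 (-0.18) in EBs. The same scaling turned EB minus ESC in Mettl3-KO cells for Ldha (0.16), Gapdh (0.053), Eno1 (0.068), Pkm (0.23) and Bsg (0.15), and in WT cells for Aldoa (0.022), Tpi1 (0.53), Slc2a1 (0.35) and Bsg (0.39). Median-ratio scaling turned Mettl3-KO minus WT of Gapdh in ESCs (-0.17) and Tpi1 in EBs (-0.13). It also turned EB minus ESC in Mettl3-KO cells for Ldha (0.15), Gapdh (0.044), Eno1 (0.059), Pkm (0.22) and Bsg (0.14), and in WT cells for Tpi1 (0.32), Slc2a1 (0.14) and Bsg (0.17). Ribosomal protein scaling turned Mettl3-KO minus WT in EBs for Gapdh (-0.14), Pkm (-0.24), Tpi1 (-0.38), Pgam1 (-0.17) and Hk2 (-0.11), and EB minus ESC in WT cells for Aldoa (0.027), Tpi1 (0.54), Slc2a1 (0.36) and Bsg (0.40). At 0 h alone, EB minus ESC of Slc2a1 in WT cells was 0.13. Leaving out both EB libraries of 8 h, an alternative chosen after seeing the data, gave Mettl3-KO minus WT in EBs of 0.0030 for Ldha and -0.015 for Pkm. Without single libraries, Mettl3-KO minus WT ran from -0.16 to 0.10 for Gapdh in ESCs, and in EBs from -0.26 to 0.15 for Ldha and from -0.054 to 0.33 for Pkm.

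Of the 10 genes, calls for EB minus ESC in WT cells numbered 9, against 4, 3 and 4 under equal totals, median-ratio and ribosomal protein scaling. In Mettl3-KO cells they numbered 5, against 2 under median-ratio and 2 under ribosomal protein scaling, 3 with no filter, 0 without the trend, 1 with additive time and 0 without both EB libraries of 8 h. Mettl3-KO minus WT had 3 calls in EBs under ribosomal protein scaling, against 0, and 2 in ESCs without the trend, against 4. The difference between cell types had 3 calls, against 1 with no filter, 0 without the trend, 0 with additive time and 1 without both EB libraries of 8 h. The slope difference in EBs had 1 call, against 0 under each of the 3 scalings, with no filter, without the trend and without both EB libraries of 8 h, and the mean slope had 1 without those libraries, against 3. With single libraries left out these counts ran from 0 to 5 for EB minus ESC in Mettl3-KO cells, 8 to 9 in WT cells, 1 to 4 for the difference between cell types, 0 to 1 for Mettl3-KO minus WT in EBs, 3 to 5 in ESCs, 0 to 3 for the slope in EBs and 2 to 3 for the mean slope.

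Over all tested entries, calls for EB minus ESC in WT cells numbered 4145, against 2012, 1996 and 1794 under equal totals, median-ratio and ribosomal protein scaling and 1662 without both EB libraries of 8 h. In Mettl3-KO cells they numbered 3066, against 237, 167 and 599 under the scalings, 111 without the trend, 723 with additive time and 278 without those libraries. The mean slope had 2753, against 1340.0 and 1045 under equal totals and median-ratio scaling, 1636 without the trend and 633 without those libraries. The slope difference in ESCs had 5, against 1, 0 and 1 under the scalings, 0 and 1 with the low and high pseudocount, and 0 with no filter, without the trend and without those libraries. In EBs it had 151, against 0, 0 and 5 under the scalings, 97 with the low pseudocount, 4 with no filter, and 0 without the trend and without those libraries. The difference between cell types had 363, against 204 with no filter, 63 without the trend, 159 with additive time and 42 without those libraries. Mettl3-KO minus WT had 1797 in ESCs, against 1047 without the trend and 1142 with additive time, and 1171 in EBs, against 353, 503 and, without those libraries, 126. With single libraries left out the counts ran from 172 to 3387 and 2094 to 4258 for EB minus ESC in Mettl3-KO and WT cells, 96 to 406 for the difference between cell types, 251 to 1248 and 717 to 1794 for Mettl3-KO minus WT in EBs and ESCs, 0 to 443 and 0 to 10 for the slope differences in EBs and ESCs, and 919 to 3040.0 for the mean slope.

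Of all calls, those higher made up 3.85% for EB minus ESC in Mettl3-KO cells, against 60.8%, 58.1% and 15.2% under equal totals, median-ratio and ribosomal protein scaling, and 10.7% in WT cells, against 69.8%, 51.1% and 67.0%. For Mettl3-KO minus WT they made up 83.1% in EBs, against 63.8%, 70.5% and 39.2%, and 76.9% in ESCs, against 61.0% under median-ratio scaling. The summed level of the 10 genes left at 8 h was 123% in Mettl3-KO ESCs, against 132% and 92.5% under median-ratio and ribosomal protein scaling. In WT ESCs it was 97.8%, against 107%, 131% and 81.4% under the 3 scalings, in Mettl3-KO EBs 91.4%, against 104%, 113% and 87.5%, and in WT EBs 42.1%, against 95.2%, 91.2% and 99.5%. Depth limits the values of Mettl3, on at most 11.9 read equivalents, and of Hk2 in WT EBs at 8 h, on 8.1, among others.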
